A study of Homo sapiens with 3 samples.

Results

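The 10 genes described here encode enzymes of pyrimidine nucleotide synthesis: CAD, DHODH, UMPS, CTPS1, CTPS2, CMPK1, UCK2, TYMS, DTYMK and TK1. They were picked by symbol as the de novo route to UMP, the steps to CTP, the salvage of uridine and thymidine, and the synthesis of thymidylate, and all 10 were found among the 16793 gene symbols of the files. RNA came from H446 cells, an established line of human small cell lung cancer, kept for 48 h in vehicle, 5 µM 3-bromoascochlorin (BAS) or 10 µM BAS. There were 3 libraries, 1 per group, all from the same line in the same medium, so the spread between replicates is unknown and nothing could be tested. Levels are in FPKM, by its usual definition fragments per kilobase of transcript scaled to the mapped reads of the library. As a unit per length, it allows levels of different genes to be set side by side. Which scaling between libraries the submitters applied is unknown. The read depth is unknown.

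Cells make UMP, the parent of all pyrimidine nucleotides, de novo from glutamine, bicarbonate and aspartate, or recover it from uridine. CAD is a single protein with the first enzyme activities of the de novo route, DHODH oxidizes dihydroorotate on the inner mitochondrial membrane, and UMPS turns the resulting orotate into UMP. DHODH hands its electrons to ubiquinone, which respiratory complex III oxidizes again, and ascochlorin, the parent of BAS, is known as an inhibitor of complex III. CAD protein is also known to be phosphorylated by ERK, a MAP kinase, and by the S6 kinase downstream of mTOR. Neither enzyme activity nor nucleotide pools were measured here.

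Differences are given as log2(FPKM + 1) in a BAS library minus that in the vehicle library, or at 10 µM minus that at 5 µM, over the 11512 genes that averaged 1 FPKM or more in the 3 libraries. All 10 members passed this filter. A gene was counted as higher or lower where this difference reached 0.585, a 1.5-fold limit, in size, and folds are plain ratios of FPKM. The added 1 shrinks the difference at low levels, so a gene can pass 1.5-fold as a plain ratio and stay inside the limit. Both BAS libraries were compared with the same vehicle library, so the comparisons share it and are not independent of each other.

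The RNA of the pyrimidine route differed little between BAS and vehicle, apart from TK1. At 5 µM, 1 of 10 members was at least 1.5-fold higher, where 3.01% of all genes were, and 0 were at least 1.5-fold lower, where 1.6% were. At 10 µM the counts were again 1 higher and 0 lower, beside 6.04% and 3.44% of all genes. TK1 was the gene counted at both doses. Some difference above vehicle, of any size, was seen in 8 members at 5 µM (53.2% of all genes) and in 7 at 10 µM (56.5% of all genes). The median difference over the members was 0.08 at 5 µM and 0.12 at 10 µM, beside 0.02 and 0.05 over all genes. CAD, CTPS1, CTPS2, TYMS, DTYMK and TK1 lay above vehicle at both doses, CMPK1 lay below it at both, and DHODH, UMPS and UCK2 lay on different sides, though with median-ratio scaling DHODH at 5 µM (−0.001) and UMPS at 10 µM (−0.003) were also below it. The quartiles of all genes were −0.14 and 0.18 at 5 µM and −0.15 and 0.25 at 10 µM.

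**Figure D1:**
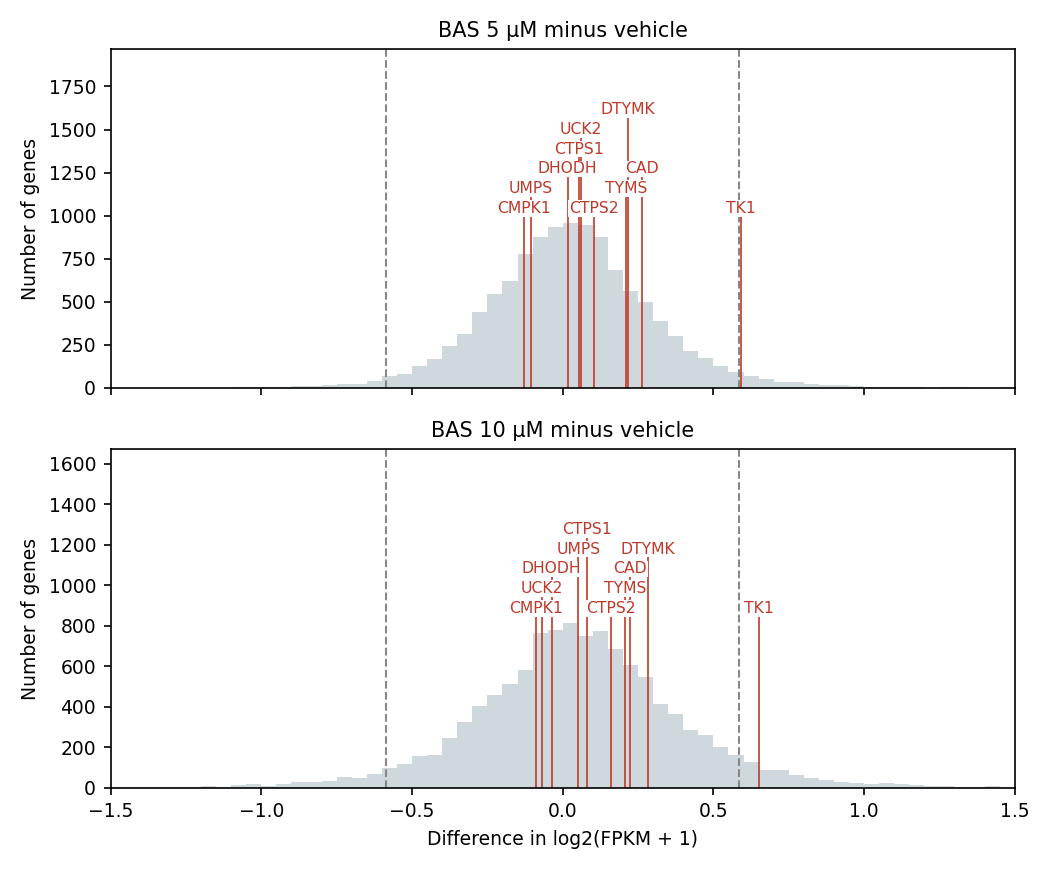
Number of genes (vertical axis) by difference in log2(FPKM + 1) from vehicle (horizontal axis, bins of 0.05) at 5 µM (upper panel) and 10 µM (lower panel), with 24 and 47 genes beyond the axis. Red lines mark the 10 members and dashed lines the 1.5-fold limits: TK1 lies just past the upper limit at 5 µM (0.592 against 0.585) and further past it at 10 µM (0.651), and the other members lie inside both limits.

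Of the de novo enzymes, CAD was measured at 42.49 FPKM in the vehicle library, 51.23 in the 5 µM library and 49.78 in the 10 µM library. It was 1.21-fold vehicle at 5 µM and 1.17-fold at 10 µM, and 29.8% and 46% of all genes differed by at least as much in either direction. DHODH, the mitochondrial step, was at 6.19 FPKM in the vehicle library, 6.27 in the 5 µM library and 6.01 in the 10 µM library. The 3 values of DHODH nearly coincide, its differences were 0.02 and −0.04, and 94.7% and 89.5% of all genes differed by at least as much. UMPS was at 13.59 FPKM in the vehicle library, 12.56 in the 5 µM library and 14.13 in the 10 µM library, with the lowest value at the lower dose. The ratio of CAD to DHODH RNA was 6.86 with vehicle, 8.17 at 5 µM and 8.28 at 10 µM. DHODH was the lowest of the 10 members in every library, near the middle of all symbols, at percentiles 52, 52.2 and 50.8 of the vehicle, 5 µM and 10 µM libraries.

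The genes that turn UMP into the other ribonucleotides stayed close to vehicle. CMPK1, the kinase of UMP and CMP, was at 43.75 FPKM in the vehicle library, 39.98 in the 5 µM library and 41.03 in the 10 µM library, differences of −0.13 and −0.09. CTPS1 makes CTP from UTP and is known for its role in proliferating lymphocytes. It was at 27.77 FPKM in the vehicle library, 28.88 in the 5 µM library and 29.43 in the 10 µM library. Its paralog CTPS2 was at 8.29 FPKM in the vehicle library, 8.98 in the 5 µM library and 9.37 in the 10 µM library. Both CTP synthase genes were in the same order over the 3 libraries, with ratios of CTPS1 to CTPS2 of 3.35, 3.22 and 3.14 with vehicle, 5 µM and 10 µM. UCK2, which phosphorylates uridine and cytidine taken up from outside, was at 37.61 FPKM in the vehicle library, 39.28 in the 5 µM library and 35.83 in the 10 µM library. Its paralog UCK1, which is not among the 10 members, was at 29.76 FPKM in the vehicle library, 34.42 in the 5 µM library and 37.66 in the 10 µM library. The ratio of UCK2 to UCK1 was therefore 1.26 with vehicle, 1.14 at 5 µM and 0.951 at 10 µM, so that UCK1 was the higher of the pair only in the 10 µM library.

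**Figure D2:**
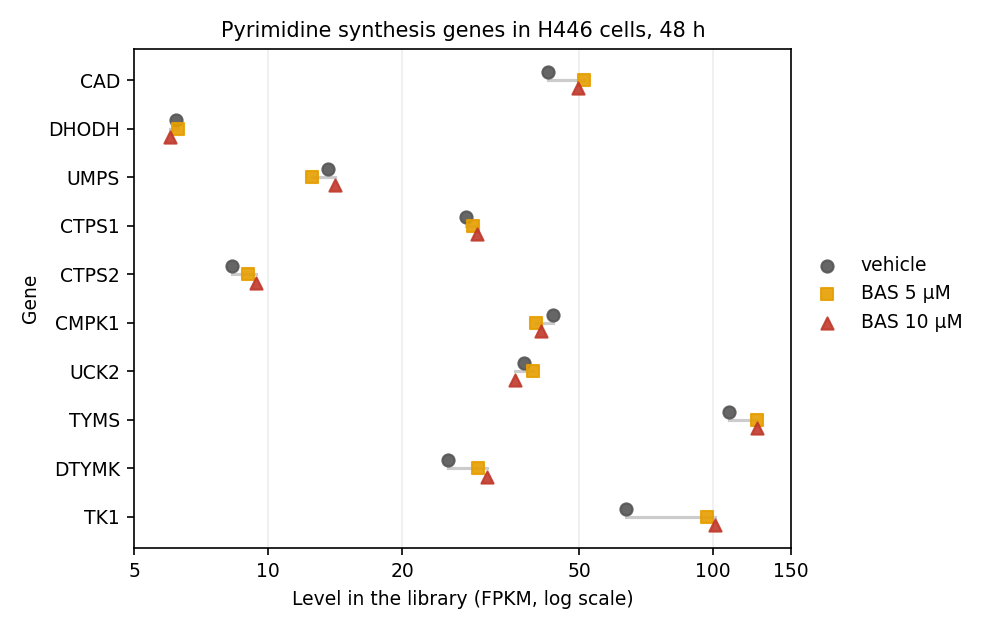
Level of each of the 10 genes (vertical axis) in FPKM on a log scale (horizontal axis) in the vehicle, 5 µM BAS and 10 µM BAS libraries, 1 library each, with a grey line from the lowest to the highest value. TK1 has the widest gap, 63.86 FPKM with vehicle against 96.75 and 100.84 FPKM with BAS, and DHODH has the lowest level, 6.01 to 6.27 FPKM.

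The 3 members of thymidylate supply, TK1, TYMS and DTYMK, which serve DNA synthesis, were above vehicle at both doses. Over all genes, 53.2% were above it at 5 µM and 56.5% at 10 µM. TK1, the cytosolic thymidine kinase made in S phase, was at 63.86 FPKM in the vehicle library, 96.75 in the 5 µM library and 100.84 in the 10 µM library. Both BAS libraries were above the vehicle library, at 1.52-fold and 1.58-fold vehicle. Among all genes, 2.92% at 5 µM and 4.54% at 10 µM were as far above vehicle as TK1 or further. The 5 µM value of 0.592 is just past the limit of 0.585. It was 0.572 with median-ratio scaling, 0.536 with a common total and 0.543 with quantile normalization, and once trends with GC content and length were taken out TK1 was at 0.42 and 0.483 at 5 and 10 µM, inside the limit. The GC content of TK1 was 62.8% over its longest coding transcript.

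TYMS, which methylates dUMP to dTMP and is the target of fluorouracil, had the highest level of the 10 genes in every library. It was at 108.73 FPKM in the vehicle library, 125.85 in the 5 µM library and 125.78 in the 10 µM library, 1.16-fold vehicle at each dose. DTYMK, the kinase that takes dTMP to dTDP, was at 25.30 FPKM in the vehicle library, 29.57 in the 5 µM library and 31.00 in the 10 µM library, 1.17-fold and 1.23-fold vehicle. Neither TYMS nor DTYMK reached the 1.5-fold limit, and 40.2% and 38.6% of all genes differed by at least as much at 5 µM. With trends in GC content and length removed, the 5 µM difference was 0.09 instead of 0.21 for TYMS and 0.03 instead of 0.22 for DTYMK. TK1 came nearer to TYMS with BAS, at ratios of 0.587 with vehicle, 0.769 at 5 µM and 0.802 at 10 µM.

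TYMS overlaps ENOSF1 on the opposite strand, and 55.1% of the 50-base sequences of its longest coding transcript also occur in other genes, mainly ENOSF1 and the antisense RNA TYMSOS. Whether reads were counted by strand is not given in the sources used here. ENOSF1 itself was far below TYMS, at 6.42 FPKM in the vehicle library, 7.63 in the 5 µM library and 7.89 in the 10 µM library. For 7 of the 10 members no 50-base sequence was found in another gene, and for DHODH and UCK2 the shares were 3.33% and 1.19%. Exons of UCK2 also overlap those of TMCO1 and AL358115.1 on the opposite strand, so the unknown counting by strand bears on UCK2 too.

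The promoters of the 3 thymidylate genes are shown beside that of DHODH, to set out which marked letters each holds. Each is the 120 bases that end just before the RefSeq start of the gene (GRCh38.p14), written 5′ to 3′ on the gene's strand. Capitals mark the CCAAT box (CCAAT, or ATTGG for the other strand) and the E2F core (TTCCCGC, or GCGGGAA for the other strand), the letters bound by NF-Y and by the E2F factors of the cell cycle. TK1 has 2 listed starts, and the one downstream on its strand is shown. Neither marked motif is in all 3 thymidylate genes. The CCAAT box is in TK1 and DTYMK, and also in DHODH, and the E2F core is in TK1 and TYMS.
TK1, chr17:78187053-78187172, minus strand: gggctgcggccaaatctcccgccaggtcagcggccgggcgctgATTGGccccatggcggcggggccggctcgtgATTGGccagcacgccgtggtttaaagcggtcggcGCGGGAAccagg
DTYMK, chr2:241686816-241686935, minus strand: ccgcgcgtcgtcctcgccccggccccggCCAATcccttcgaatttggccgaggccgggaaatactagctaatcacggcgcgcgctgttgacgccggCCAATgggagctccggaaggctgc
TYMS, chr18:657533-657652, plus strand: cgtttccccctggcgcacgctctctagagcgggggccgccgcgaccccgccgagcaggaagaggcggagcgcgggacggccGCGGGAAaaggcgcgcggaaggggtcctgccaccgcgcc
DHODH, chr16:72008624-72008743, plus strand: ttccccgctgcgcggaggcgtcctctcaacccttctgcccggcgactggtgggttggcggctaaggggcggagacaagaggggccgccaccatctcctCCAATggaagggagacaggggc

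In windows from 250 bases before to 50 after the start, a CCAAT box on either strand was found in 5 of the 10 genes, CAD, DHODH, UCK2, DTYMK and TK1, and in 34.6% of all 35116 RefSeq windows. CTPS1, CTPS2 and TK1 have 2 windows each, and a gene was counted where either window held the motif. Counts of genes and shares of windows are therefore unlike measures here, and the counts run higher. TK1 and DTYMK each hold 2 CCAAT boxes, at −77 and −46 in TK1 and at −92 and −24 in DTYMK, counted from the start, and 10.8% of all windows hold 2 or more. The E2F core was found in TK1 at −12 and in TYMS at −39, and in 6.55% of all windows. The looser E2F form TTTNNCGC was found in TYMS alone among the members, overlapping the core there, and in 6.89% of all windows. CACGTG, the E-box bound by MYC, was found in DHODH alone, at −159, and in 7.26% of all windows. The ATF4 element TGATGNAA was found in 0 of the 10 genes and in 3.62% of all windows, and TTTGAA, a cell cycle element, in UMPS alone and in 15.2%. The GC box GGGCGG was found in 7 of the 10 genes and in 45% of all windows. Motifs were chosen with the RNA values known, and a match is a description of these letters only.

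Between the doses, no member differed by 1.5-fold: 0 were higher and 0 lower at 10 µM than at 5 µM, beside 0.434% and 0.408% of all genes. The widest gap was that of UMPS, with 14.13 FPKM at 10 µM against 12.56 FPKM at 5 µM, a difference of 0.16. UCK2 followed, with 35.83 FPKM at 10 µM against 39.28 FPKM at 5 µM, a difference of −0.13. The other 8 members differed by less than 0.1 between doses, and TYMS by −0.001. Of the 10 members, 6 lay higher at 10 µM than at 5 µM, and 58.6% of all genes did.

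In the order of levels, TYMS and TK1 came first and second and UMPS, CTPS2 and DHODH came last in each of the 3 libraries. In the middle, CMPK1 was above CAD with vehicle, at a ratio of CAD to CMPK1 of 0.971, while CAD was above CMPK1 at 5 µM and 10 µM, at ratios of 1.28 and 1.21. DTYMK and CTPS1 likewise changed places, with a ratio of DTYMK to CTPS1 of 0.911 with vehicle, 1.02 at 5 µM and 1.05 at 10 µM. With 1 library per group, neighbours this close cannot be put in an order. TK1 RNA was 10.3 times DHODH RNA with vehicle, 15.4 times at 5 µM and 16.8 times at 10 µM. Summed over the 10 members, the level was 377.58 FPKM in the vehicle library, 439.35 in the 5 µM library and 443.2 in the 10 µM library.

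The nearest patterns to a member were sought among all genes by the distance over the pair of differences from vehicle. For DHODH these were UBE2D2, COQ2, an enzyme of ubiquinone synthesis, and TRAPPC13, but 11.1% of all genes lay within 0.1 of DHODH, which stood in the dense middle. For TK1 they included IL21R (7.63, 11.92 and 12.61 FPKM with vehicle, 5 µM and 10 µM) and APLP1, and 0.99% of all genes lay within 0.1. Likeness over 3 libraries is a description only.

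Outside the 10 members, the other routes to pyrimidines held genes past the limit at 10 µM. The salvage and uptake list held 9 genes past the filter of 15 listed, of which 0 at 5 µM and 2 at 10 µM were at least 1.5-fold higher and 0 were lower at either dose, with medians of 0.25 and 0.27. Over all genes, 3.01% and 6.04% were at least 1.5-fold higher and 1.6% and 3.44% lower at 5 and 10 µM. SLC29A1 (ENT1), the main equilibrative nucleoside transporter of the cell surface, was at 27.80 FPKM in the vehicle library, 39.52 in the 5 µM library and 46.64 in the 10 µM library. SLC29A3 (ENT3), a transporter of lysosomes and mitochondria, was at 2.55 FPKM in the vehicle library, 3.63 in the 5 µM library and 5.58 in the 10 µM library. Both transporters were ordered by dose, at 1.68-fold and 2.19-fold vehicle at 10 µM. The transporter SLC29A2 (ENT2) was at 10.23 FPKM in the vehicle library, 9.87 in the 5 µM library and 9.41 in the 10 µM library. DCK, the kinase of deoxycytidine, was at 19.67 FPKM in the vehicle library, 23.58 in the 5 µM library and 23.84 in the 10 µM library. The mitochondrial thymidine kinase TK2 was at 2.42 FPKM in the vehicle library, 3.10 in the 5 µM library and 2.43 in the 10 µM library, unlike its cytosolic counterpart TK1 in that its vehicle and 10 µM values are nearly equal. TYMP, a phosphorylase of thymidine, was at 0.66 FPKM in the vehicle library, 1.18 in the 5 µM library and 1.21 in the 10 µM library, and 21.8% of its 50-base sequences occur in other genes. As plain ratios TYMP was at 1.79-fold and 1.83-fold vehicle, but its differences of 0.39 and 0.41 at this low level were inside the limit. Below the filter, the uridine phosphorylase UPP1 was at 0.49 FPKM in the vehicle library, 0.64 in the 5 µM library and 0.80 in the 10 µM library. The cytidine deaminase gene CDA, also below it, was listed at 0 with vehicle and at 0.32 FPKM at 5 µM and 0.59 FPKM at 10 µM.

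**Figure D3:**
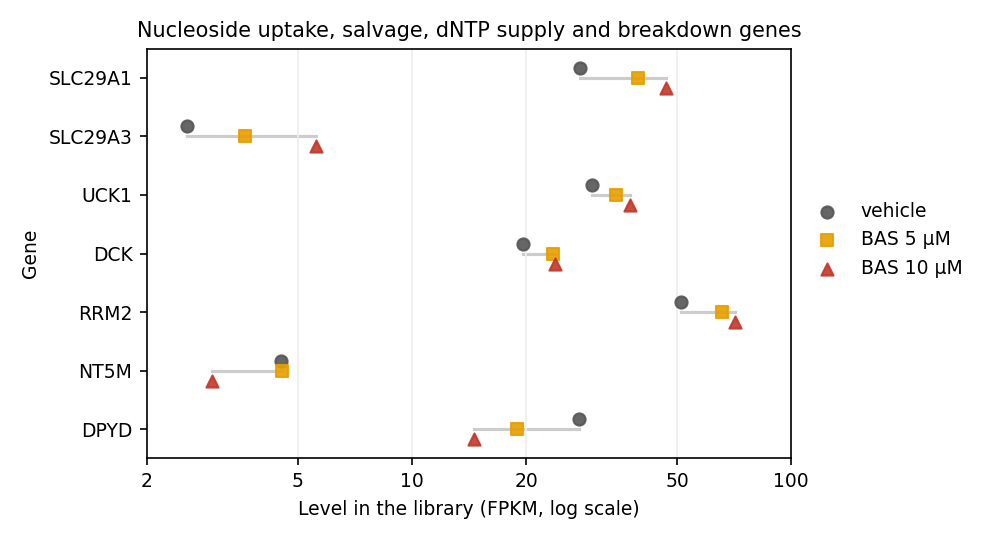
Level in FPKM on a log scale (horizontal axis) of 7 genes of nucleoside uptake, salvage, deoxynucleotide supply and breakdown (vertical axis) in the vehicle, 5 µM BAS and 10 µM BAS libraries, 1 library each, with a grey line over the range. SLC29A1 and SLC29A3 are highest at 10 µM, and DPYD is lowest at 10 µM, at 14.57 FPKM against 27.51 FPKM with vehicle.

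Breakdown genes were led by DPYD, the enzyme that starts the degradation of uracil and thymine and clears fluorouracil. DPYD was at 27.51 FPKM in the vehicle library, 18.91 in the 5 µM library and 14.57 in the 10 µM library. It fell past the limit at 10 µM, to 0.53 times vehicle, and at 5 µM, at 0.687 times vehicle, its difference of −0.52 was inside the limit. In its list, 7 of 11 genes passed the filter, with medians of 0.01 and −0.01. At 5 and 10 µM, 0 and 1 were at least 1.5-fold lower (1.6% and 3.44% of all genes). Higher were 0 at both doses (3.01% and 6.04% of all genes). NT5M, a mitochondrial nucleotidase of dTMP and dUMP, was at 4.52 FPKM in the vehicle library, 4.54 in the 5 µM library and 2.97 in the 10 µM library. At 10 µM NT5M was at 0.657 times vehicle as a plain ratio, with a difference of −0.48 inside the limit. NT5C, its cytosolic relative, was at 25.55 FPKM in the vehicle library, 32.54 in the 5 µM library and 31.42 in the 10 µM library. Part of NT5C cannot be told from other genes, with 30.8% of its 50-base sequences shared.

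Of 14 genes of deoxynucleotide supply, all found in the files, 13 passed the filter. Their medians were 0.12 at 5 µM and 0.13 at 10 µM, and 0 reached the 1.5-fold limit at either dose. That limit was passed upward by 3.01% and 6.04% of all genes and downward by 1.6% and 3.44%. Of the 13 genes, 9 and 11 lay above vehicle, beside 53.2% and 56.5% of all genes. RRM2, the S phase subunit of ribonucleotide reductase, was at 51.09 FPKM in the vehicle library, 65.79 in the 5 µM library and 70.92 in the 10 µM library. Its partner RRM1 was at 81.60 FPKM in the vehicle library, 88.33 in the 5 µM library and 91.86 in the 10 µM library. RRM2B, the subunit used outside S phase, was at 4.65 FPKM in the vehicle library, 4.23 in the 5 µM library and 4.74 in the 10 µM library. RRM2 was highest at 10 µM, at 1.39-fold vehicle, and shares 29.7% of its 50-base sequences with pseudogenes and a neighbouring gene. DUT, which makes dUMP for TYMS, was at 37.61 FPKM in the vehicle library, 42.30 in the 5 µM library and 36.17 in the 10 µM library.

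TK1, TYMS and DTYMK are genes of cycling cells, and in the cycle lists the G2 and mitosis genes lay below vehicle with BAS. The 15 S phase genes had medians of 0.09 at 5 µM and 0.15 at 10 µM. Above vehicle lay 10 at each dose, where 53.2% and 56.5% of all genes did. Of these 15 genes, 0 reached the limit, beside 3.01% and 6.04% of all genes higher and 1.6% and 3.44% lower. The licensing factors CDC6 and CDT1 were highest among them, at 1.37-fold and 1.32-fold vehicle at 10 µM, and the helicase subunit MCM2 lowest, at 0.785 times vehicle, with 27.2% of its 50-base sequences shared with other genes. Of 15 genes of G2 and mitosis, 14 were below and 1 was above vehicle at each dose, beside the same 53.2% and 56.5% of all genes above it. In this list 10 at 5 µM and 8 at 10 µM were at least 1.5-fold lower, where 1.6% and 3.44% of all genes were, with medians of −0.64 and −0.61. PLK1, a mitotic kinase, was at 71.25 FPKM in the vehicle library, 32.74 in the 5 µM library and 33.04 in the 10 µM library. The part of a shifted cycle in the thymidylate genes was not tested, and in bulk RNA fewer cells in a phase and less RNA per cell cannot be told apart. In the list of 13 regulators, 0 reached the limit, beside those same shares of all genes, with medians of −0.09 and 0.09. Above vehicle lay 2 regulators at 5 µM and 9 at 10 µM, where 53.2% and 56.5% of all genes did. The other 11 and 4 lay below it. Of the E2F genes in the list, E2F1 and E2F2 were above vehicle at both doses. E2F3 was below it at both, with differences of −0.26 and −0.19. E2F4, E2F7 and E2F8 were below it at the lower dose and above it at the higher. E2F1, a factor that drives S phase genes, was at 24.31 FPKM in the vehicle library, 31.51 in the 5 µM library and 35.79 in the 10 µM library. RPS6KB1, the S6 kinase that acts on CAD, was at 13.41 FPKM in the vehicle library, 10.49 in the 5 µM library and 10.14 in the 10 µM library. MAPK3 (ERK1) was at 29.40 FPKM in the vehicle library, 27.23 in the 5 µM library and 24.20 in the 10 µM library.

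**Figure D4:**
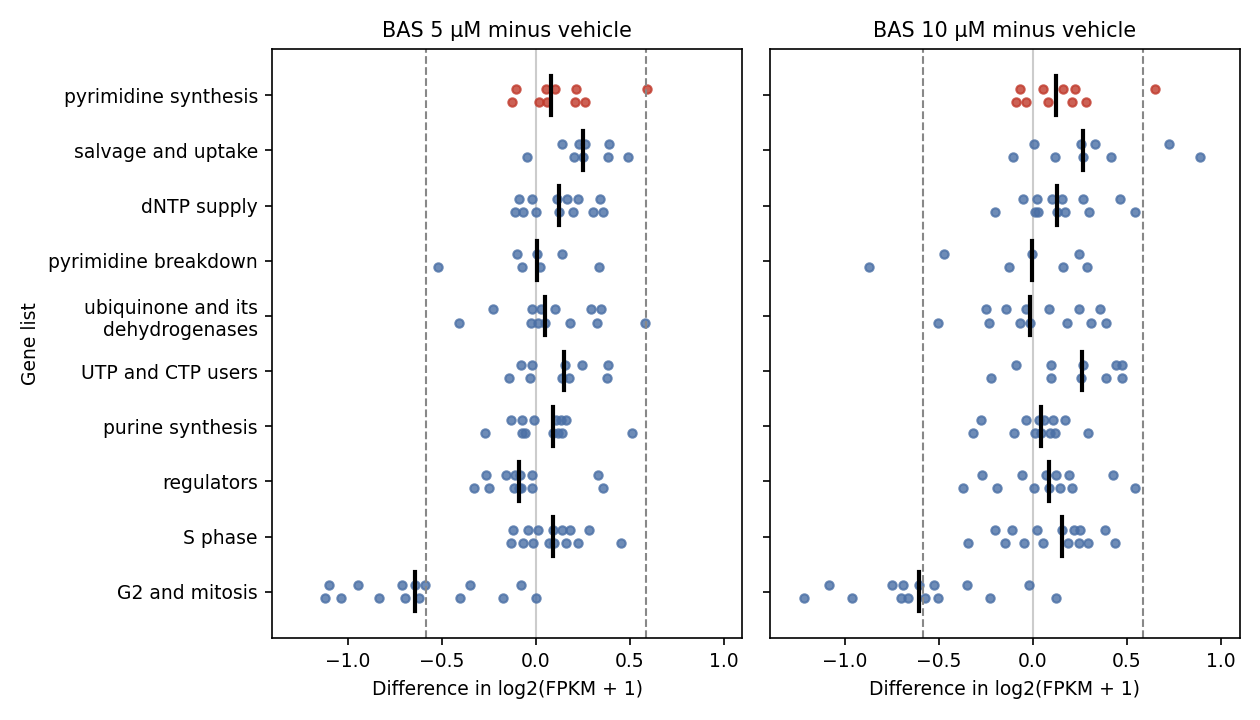
Difference in log2(FPKM + 1) from vehicle (horizontal axis) of each gene past the filter (points) in 10 lists (vertical axis) at 5 µM (left) and 10 µM (right), with the list median as a black bar and the 1.5-fold limits as dashed lines. The pyrimidine synthesis genes, in red, have medians of 0.08 and 0.12, and the G2 and mitosis genes have medians of −0.64 and −0.61.

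Around DHODH in the mitochondrion, 13 genes of ubiquinone synthesis and of other dehydrogenases that reduce ubiquinone passed the filter, and 0 reached the limit. Their medians were 0.05 at 5 µM and −0.02 at 10 µM. Among all genes, 3.01% at 5 µM and 6.04% at 10 µM were at least 1.5-fold higher, and 1.6% and 3.44% lower. A list of 13 genes with 0 past the limit is near those shares. ETFDH, which brings electrons from fatty acid oxidation to ubiquinone, was at 9.89 FPKM in the vehicle library, 7.20 in the 5 µM library and 6.67 in the 10 µM library. COQ6, a hydroxylase of ubiquinone synthesis, was at 13.10 FPKM in the vehicle library, 20.12 in the 5 µM library and 17.45 in the 10 µM library, with 55.6% of its 50-base sequences shared with the genes that overlap it. At 5 µM COQ6 was at 1.54-fold vehicle as a plain ratio, with a difference of 0.583 just inside the limit. UQCRFS1, which encodes the Rieske iron-sulfur protein of complex III, was at 0.909 and 0.823 times vehicle at 5 and 10 µM. In the parallel route of purine synthesis, 0 of 13 genes passed the limit, with medians of 0.09 at 5 µM and 0.04 at 10 µM. In it, IMPDH2, the enzyme at the branch to GMP, was at 146.66 FPKM in the vehicle library, 121.59 in the 5 µM library and 117.20 in the 10 µM library. GART, an enzyme of several steps of that route, was at 130.83 FPKM in the vehicle library, 139.63 in the 5 µM library and 141.81 in the 10 µM library.

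Across the series, the values summed to 487923 to 507342 FPKM per library. Of 9 small cell lung cancer markers listed, 8 were matched and 7 were at or above 1 FPKM in each library. Their summed levels were 427.50 FPKM in the vehicle library, 452.98 in the 5 µM library and 514.44 in the 10 µM library, and the genes did not move together. UCHL1, a neuronal ubiquitin hydrolase, was at 82.21 FPKM in the vehicle library, 131.19 in the 5 µM library and 176.51 in the 10 µM library, past the limit at both doses. CHGA, a protein of secretory granules, was also past it at both, at 2.09-fold and 3.36-fold vehicle at 5 and 10 µM, with 1.91 FPKM in the vehicle library. INSM1 and NCAM1 lay above vehicle inside the limit, while the neuronal factor NEUROD1 was at 104.96 FPKM in the vehicle library, 93.15 in the 5 µM library and 91.62 in the 10 µM library. POU4F1 was at 101.29 FPKM in the vehicle library, 69.87 in the 5 µM library and 65.66 in the 10 µM library, past the lower limit at 10 µM, and SYP lay below vehicle at both doses inside the limit. Of the 50-base sequences of POU4F1, 26.9% occur in a gene that overlaps it on the opposite strand.

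Of 10 markers of cells foreign to the culture, 4 with vehicle, 3 at 5 µM and 5 at 10 µM were at or above 1 FPKM, and their summed levels were 458.54, 506.41 and 479.87 FPKM. COL1A2, a collagen gene, made up most of that sum, at 389.39 FPKM in the vehicle library, 412.40 in the 5 µM library and 370.87 in the 10 µM library. Its partner COL1A1 was at 63.57 FPKM in the vehicle library, 85.84 in the 5 µM library and 98.52 in the 10 µM library, 1.55-fold vehicle and past the limit at 10 µM. CD68, a lysosomal protein used as a macrophage marker, was at 2.85 FPKM in the vehicle library, 6.05 in the 5 µM library and 7.34 in the 10 µM library, past the limit at both doses at 2.12-fold and 2.58-fold vehicle. Of the 50-base sequences of CD68, 97.4% occur in other genes, so its values may hold reads of those genes. The leukocyte marker PTPRC was at 0.92 to 1.09 FPKM, and LYZ, PECAM1, VWF, DCN, ALB and SFTPC averaged less than 1 FPKM, with SFTPC listed at 0 at 5 µM. The part of either marker list in the members' differences was not tested.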

How the data were processed

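RNA-seq libraries from H446 cells, 1 per group, were sequenced as single-end reads on an MGISEQ2000, per the labels' protocols. The authors deposited FPKM values per gene symbol, per the file headers, with Trim Galore, BWA, Bowtie2, Cufflinks, Cuffdiff and the build hg19 named in the submitters' processing notes. The sources used here give no versions, annotation, strand or scaling. FPKM keeps no depth, so no counting error can be given. The headers of the treated files carry the codes ASB85 and ASB810, and each file's dose was taken from its label.

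The 2 symbols in more than 1 row were summed. Differences used log2(FPKM + 1) over genes averaging 1 FPKM or more, and a limit of 1.5-fold in place of a test. Members, gene lists and motifs were chosen with earlier results of these data known. Named genes are the members, up to 4 genes per list with the largest difference at 10 µM, genes fixed by name, and the nearest patterns, of which some are not reported here. ENOSF1, SLC29A2 and the cell type markers were added as overlap partner, paralog and check of the culture.

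GC content, length and 50-base sequences held in common were computed on the longest coding transcript in GENCODE 29, matched by symbol for 98.7% of the 11512 genes. Promoter windows came from RefSeq (GRCh38.p14), with a window for all 10 members. Since that build differs from hg19, the coordinates belong to the promoter sequences alone. The alternatives comprised 2 other pseudocounts (0.1 and 0.5), dropping the filter or raising it to 5 FPKM, 3 scalings, limits of 1.25-fold and 2-fold, and, added after the data were seen, removal of GC and length trends. The rule of size, the removal of trends and the 3 scalings were tested on simulated data with planted differences, and the other steps were not. Python 3.11.15, numpy 2.4.6, pandas 2.3.3 and matplotlib 3.10.9 were used.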

Additional observations from a re-analysis of the deposited data

How the results depend on the processing

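The count of 1 member at least 1.5-fold higher rests on TK1. At 5 µM it was 0 with median-ratio scaling (TK1 at 0.572), with a common total (0.536) and with quantile normalization (0.543), as the 5 µM value lies just past the limit. With GC and length trends removed it was 0 at both doses, with TK1 at 0.42 and 0.483, and with a 2-fold limit it was 0 at both. Removing those trends also gave 0.093 for TYMS and 0.028 for DTYMK at 5 µM, 0.15 for DTYMK at 10 µM, and medians of −0.563 and −0.577 for the G2 and mitosis list, inside the limit. The median of the ubiquinone list at 10 µM was 0.086 with the filter at 5 FPKM. Of 540 other values, over 66 results and 10 alternatives, 522 were classed as the same. For differences and medians this meant the same side of the limit and, inside it, a move of less than 0.1. Counts of members classed as the same were equal. Dropping the filter or raising it to 5 FPKM could not change any value of the members. All 10 averaged more than 5 FPKM, with DHODH lowest at 6.16 FPKM, so these values were the same by construction. Member differences near 0 changed sign or reached 0 in 12 values, at sizes of up to 0.055. The 540 values also include medians and counts, so they are not the base for these 12. DHODH at 5 µM was −0.001 with median-ratio scaling and −0.033 with a common total. Over all genes, 346 were higher and 184 lower at 5 µM, against 561 and 329 with a pseudocount of 0.1, 270 and 254 with a common total, and 230 and 112 with the filter at 5 FPKM. At 10 µM, 695 were higher and 396 lower, against 550 and 498 with median-ratio scaling, 539 and 511 with quantile normalization, and 449 and 240 with the filter at 5 FPKM. No paired analysis was possible because each group has 1 library.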

Other observations

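Of 12 genes that spend UTP and CTP on sugars and lipids, 10 passed the filter. Of these 10, 0 reached the limit at 5 or 10 µM, which 3.01% and 6.04% of all genes passed upward and 1.6% and 3.44% downward. Above vehicle lay 6 at 5 µM and 8 at 10 µM, where 53.2% and 56.5% of all genes did, so the 5 µM count is near the share over all genes. The medians were 0.15 and 0.26, beside 0.02 and 0.05 over all genes. UAP1, which makes UDP-N-acetylglucosamine from UTP, was at 31.22 FPKM in the vehicle library, 35.42 in the 5 µM library and 43.80 in the 10 µM library. GFPT1, the enzyme that opens the same hexosamine route, was at 12.42 FPKM in the vehicle library, 13.95 in the 5 µM library and 17.26 in the 10 µM library. On the lipid side, PCYT2, which uses CTP to make phosphatidylethanolamine, was at 8.57 FPKM in the vehicle library, 7.66 in the 5 µM library and 7.20 in the 10 µM library. PCYT2 was chosen after its values were seen.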
